A study of Homo sapiens with 4 samples.

Results

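The promoters described here belong to 10 nuclear genes whose products copy, package and transcribe mitochondrial DNA (mtDNA): TFAM, POLRMT, TFB1M, TFB2M, MTERF1, POLG, POLG2, TWNK, SSBP1 and MGME1. They were chosen by function, as the rows of the promoter count table whose Entrez identifiers map to these symbols, and all 10 were found among 28775 promoters. Chromatin accessibility was measured by ATAC-seq, in which the Tn5 transposase cuts and tags open DNA, in HEK293T cells, an established human embryonic kidney line that expresses SV40 large T antigen. All 4 libraries came from cells that were wild type for MORC2. Cells of the overexpression group (n = 2 libraries) received a plasmid encoding MORC2, a nuclear ATPase linked to gene silencing, with a green fluorescent tag. Those of the control group (n = 2 libraries) were treated with lipofectamine, the transfection reagent, and the labels do not give whether they also received an empty plasmid. Cells were harvested 72 h after transfection as bulk populations, so fewer cells that took up the plasmid and a smaller response per cell cannot be told apart. Nothing in the labels says that libraries of a group came from separate cultures, and the p-values then measure only the spread between these libraries.

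Mitochondria hold their own small circular genome, but the proteins that copy and read it are encoded in the nucleus and imported. POLRMT, the mitochondrial RNA polymerase, starts transcription together with TFAM, an HMG-box protein that bends promoter DNA and also packages the genome, and TFB2M, which helps to open the promoter. Replication is carried out by the polymerase POLG with its accessory subunit POLG2, the helicase TWNK and the single-strand binding protein SSBP1. Many of these genes have GC-rich promoters and are known targets of the nuclear respiratory factor NRF1 and of the ETS-family factor GABPA, through which nuclear transcription is matched to mitochondrial demand.

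Of the 10 genes, 9 had a promoter sequence in the RefSeq table of assembly GRCh38.p14, which spans 250 bases before to 50 bases after the transcription start. TWNK had no entry. The sequences of TFAM, POLRMT, TFB1M and TFB2M are shown because these genes make up the transcription group apart from MTERF1 and all carry the NRF1 letters. Each is the 250 bases upstream of the start, 5′ to 3′ on the strand of the gene, and capitals mark matches to the NRF1 letters GCGCANGC or the ETS letters CCGGAAG on either strand.
TFAM, chr10:58385160-58385409, plus strand: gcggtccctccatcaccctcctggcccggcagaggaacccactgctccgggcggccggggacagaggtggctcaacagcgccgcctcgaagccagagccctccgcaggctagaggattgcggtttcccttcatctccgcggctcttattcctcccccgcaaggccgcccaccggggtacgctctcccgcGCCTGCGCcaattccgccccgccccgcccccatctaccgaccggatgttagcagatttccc
POLRMT, chr19:633538-633787, minus strand: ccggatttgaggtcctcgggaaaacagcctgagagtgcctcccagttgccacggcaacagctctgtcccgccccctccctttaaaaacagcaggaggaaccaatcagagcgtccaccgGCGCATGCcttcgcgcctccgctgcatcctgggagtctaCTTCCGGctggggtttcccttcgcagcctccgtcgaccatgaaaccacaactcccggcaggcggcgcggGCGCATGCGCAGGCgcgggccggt
TFB1M, chr6:155314485-155314734, minus strand: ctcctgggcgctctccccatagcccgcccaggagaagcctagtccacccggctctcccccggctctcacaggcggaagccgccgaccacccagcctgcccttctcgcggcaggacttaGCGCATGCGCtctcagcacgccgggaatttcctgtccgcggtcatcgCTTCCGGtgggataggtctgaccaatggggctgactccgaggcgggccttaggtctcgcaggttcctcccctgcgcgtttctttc
TFB2M, chr1:246566262-246566511, minus strand: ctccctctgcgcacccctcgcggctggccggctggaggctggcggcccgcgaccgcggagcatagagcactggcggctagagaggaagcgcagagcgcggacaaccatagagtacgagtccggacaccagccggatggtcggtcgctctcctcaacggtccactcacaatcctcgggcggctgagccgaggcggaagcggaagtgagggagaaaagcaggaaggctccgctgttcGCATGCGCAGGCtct

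The NRF1 letters were present in 5 of the 9 windows (TFAM, POLG2, POLRMT, TFB1M and TFB2M), against 15.2% of 19554 promoter windows of the same length. In TFAM the match lay 61 to 54 bases before the start, in POLG2 12 to 5 bases before it. POLRMT held 4 matches, 3 of which overlapped one another between 24 and 11 bases before the start. The paired matches in TFB1M (132 to 123 bases before the start) and in TFB2M (15 to 4 bases before it) also overlapped. The ETS letters were present in POLG2, SSBP1, POLRMT, TFB1M and MTERF1, again 5 of 9, against 13.0% of all windows, and in SSBP1 the match lay 42 to 48 bases after the start. POLG2, POLRMT and TFB1M held both, as did 2.90% of all windows, whereas POLG and MGME1 held neither. Other letters searched on both strands were GGGCGG (the SP1 box, 7 of 9 against 53.6%), GCCAAT (2 of 9 against 17.0%), TATAAA (2 of 9 against 10.0%), AAGATGGC (YY1) and TGACGTCA (the cyclic AMP response element), the last 2 in MGME1 alone among the members and in 3.57% and 2.41% of all windows. CACGTG, the E-box, occurred in none of the 9 and in 8.34% of all windows. The median GC content of the 9 windows was 65.0% (range 51.0 to 68.0), against 61.3% over all windows, and the median number of CpG sites was 28 (range 18 to 32) against 20. A match is a description of letters and does not show that a factor was bound.

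Several of these promoters had nearly the same counts as a neighbouring annotated gene, and for those the counts cannot be assigned to one gene. POLG had counts identical to those of POLGARF, an alternative reading frame on the same transcript, in all 4 libraries. TWNK with MRPL43, TFB2M with CNST and MGME1 with SNX5 differed by at most 1 count in a library, and SSBP1 with WEE2-AS1 by at most 2. POLRMT was within 14 counts of BSG-AS1 and TFB1M within 54 counts of SCAF8, whereas TFAM, POLG2 and MTERF1 had no neighbour with counts within 10% in every library. ATAC-seq carries no strand information, so the values below likely describe a shared open region in the 5 cases within 2 counts. For POLRMT and TFB1M this is less sure. Sharing was read from the counts alone, and overlap of the windows was not checked.

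The 4 libraries differed in depth and in the share of mitochondrial counts. Promoter counts summed to 10255182 and 8279528 in the control libraries and to 7211724 and 3734519 in the overexpression libraries, of which 51.9% and 55.6%, against 74.7% and 73.8%, fell on the 37 mitochondrial promoters. Per nuclear promoter the median count was 98 and 74 for control replicates 1 and 2, but 40 and 23 for overexpression replicates 1 and 2. At the promoter of MORC2 itself, control replicates 1 and 2 had 257 and 162, overexpression replicates 1 and 2 had 87 and 42 (log2 fold change -0.14, SE 0.155, edgeR quasi-likelihood test with Benjamini-Hochberg adjustment, adjusted p = 0.695). The plasmid carries a cDNA, so this promoter does not check the overexpression. Promoters of 4 kidney-line markers (LHX1, PAX2, NEFM and VIM) summed to 213 and 211 counts per 1000000 nuclear counts in control and to 236 and 220 in overexpression. VIM, with 723 and 533 counts in control, made up most of these sums. By control level VIM lay at the 98.1 percentile of nuclear promoters, LHX1 at 51.7, NEFM at 38.4 and PAX2 at 28.5. Promoters of 11 markers of blood, liver, muscle, epithelial and pancreatic cells summed to 106 and 96.1 in control and 146 and 179 in overexpression. PTPRC, CD3E and ALB held at most 10 counts in any library, and the other 8 markers had fold changes above 0, with 2 of them, MYH7 (log2 fold change 1.25) and KRT14 (1.16), past adjusted p = 0.05 in the edgeR fit, where 1.16% of all promoters rose. These 8 lay between the 16.6 and the 44.6 percentile of nuclear promoters by control level, as did NEFM and PAX2. In the lowest of 4 abundance classes 78.1% of all promoters also had fold changes above 0, and in the next class 3929 of 5852 had. At adjusted p = 0.05 in the edgeR fit, 130 and 82 of 5852 promoters rose in these classes, and 1 and 4 fell. The part of these markers in the results below was not tested.

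All 10 promoters were open and well counted. They lay between the 59.1 and the 99.4 percentile of tested nuclear promoters by control level, and when all tested promoters were divided by mean abundance into 4 classes of equal size, 6 of the 10 fell in the highest class and 4 in the next. Counts ranged from 207 (TWNK) to 940 (POLG) in control replicate 1 and from 32 (MTERF1) to 176 (POLG) in overexpression replicate 2, the shallowest library. Levels are given as counts per 1000000 (CPM) of the library total scaled by the trimmed mean of M-values (TMM), per promoter window, and all windows were taken as equally long.

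**Figure D1:**
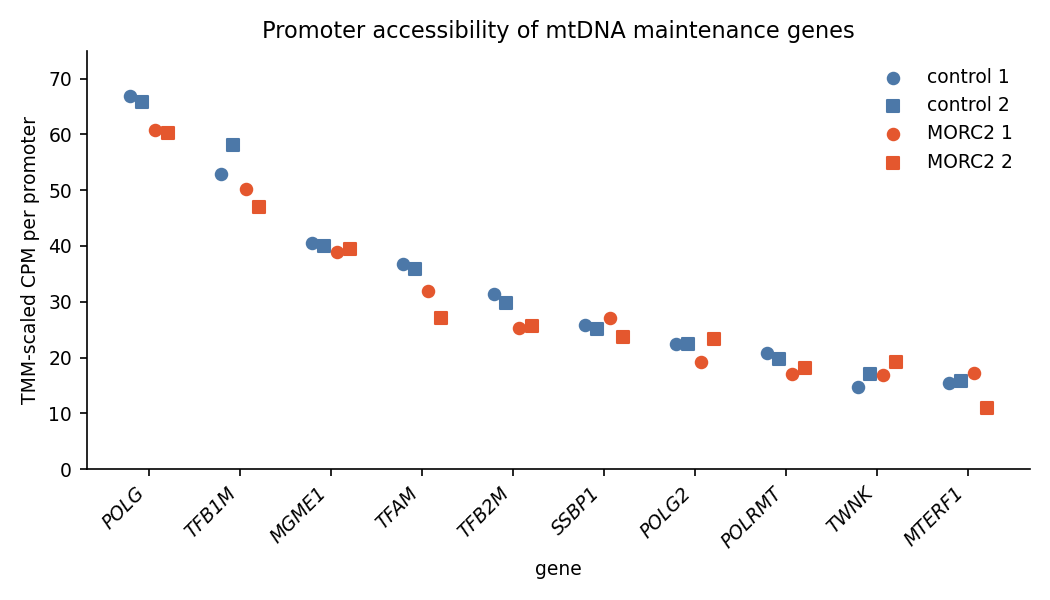
TMM-scaled counts per 1000000 at each of the 10 promoters (vertical axis), with each point a library. POLG had the highest mean level and MTERF1 the lowest, and the overexpression points of TFAM, POLG, POLRMT, TFB1M, TFB2M and MGME1 lay below both control points.

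POLG had the highest mean level over the 4 libraries (63.5 CPM), followed by TFB1M (52.0), MGME1 (39.7), TFAM (32.9), TFB2M (28.0), SSBP1 (25.4), POLG2 (21.8), POLRMT (18.9), TWNK (16.9) and MTERF1 (14.8). Of the 9 neighbouring pairs in that order, 4 had ranges over the 4 libraries that did not overlap: POLG over TFB1M, TFB1M over MGME1, MGME1 over TFAM, and SSBP1 over POLG2. The other 5 pairs overlapped in these ranges, which take in both groups. Within libraries, TFAM was nevertheless above TFB2M and POLG2 above POLRMT in 4 of 4, whereas TFB2M over SSBP1 and POLRMT over TWNK held in 3 of 4 and TWNK over MTERF1 in 2 of 4. The catalytic subunit of the polymerase had a promoter level above that of its accessory subunit in every library.

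Together the 10 genes took up 4598 and 3430 counts per control library, against 1632 and 860 per overexpression library. Relative to nuclear promoter counts alone, these were 933 and 933 counts per 1000000 in control, against 893 and 878 counts per 1000000 in overexpression. Both overexpression libraries were below both control libraries, with means of 933 ± 0.310 and 885 ± 11.1 counts per 1000000 (SD, n = 2 each), a ratio of 0.949. An exact two-sided permutation test gave p = 0.33, the smallest that 2 against 2 allows, and leaving out each library in turn gave ratios of 0.941 to 0.957.

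Mitochondrial promoter counts moved the other way and by far more. Mitochondrial counts per count on the 10 nuclear promoters were 1158 and 1342 in control libraries against 3299 and 3203 in overexpression libraries, means of 1250 ± 130 and 3251 ± 68.2 (SD, n = 2 each), a ratio of 2.60 (exact permutation p = 0.33, the smallest possible). Mitochondrial promoter windows overlap one another, and the same fragment can enter several of their counts. With the most covered mitochondrial promoter alone, the ratio was 2.63 (55.9 ± 5.77 against 147 ± 3.55). Mitochondrial counts per nuclear promoter count were 1.08 and 1.25 in control libraries, and 2.95 and 2.81 in overexpression libraries. The rise was thus found against all nuclear promoter counts and was not particular to these 10 genes. All of these values are shares of sequenced fragments, and the mtDNA content per cell was not measured.

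**Figure D2:**
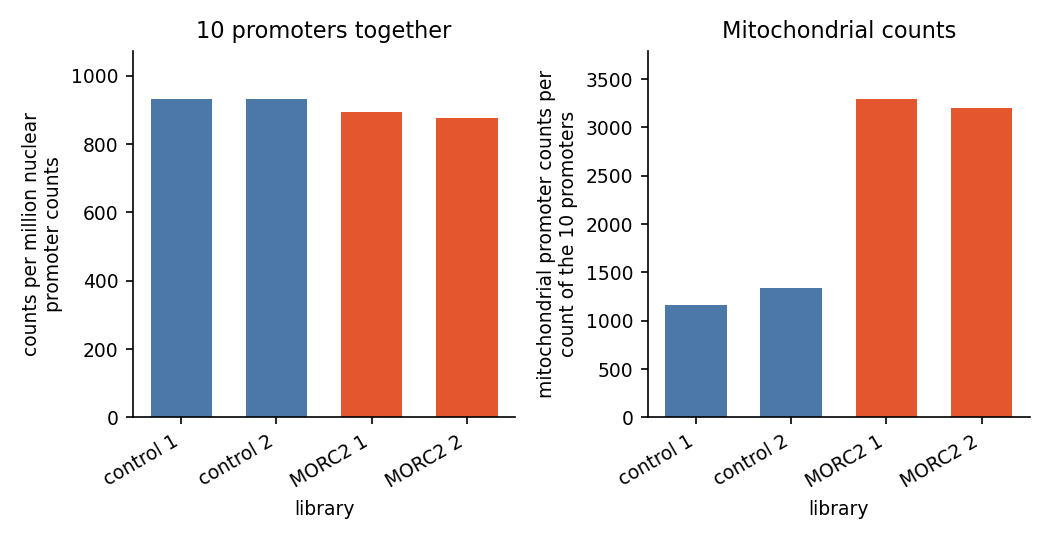
Bars give, for each of the 4 libraries, the summed level of the 10 promoters in counts per 1000000 nuclear promoter counts and the mitochondrial promoter counts per count on the 10 promoters, on linear axes from 0. The first quantity ran from 878 to 933 over the libraries, while the second ran from 1158 to 1342 in control and from 3203 to 3299 in overexpression.

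The comparison of overexpression with control asked whether accessibility at these promoters changed along with the mitochondrial share. None of the 10 genes passed adjusted p = 0.05 (edgeR quasi-likelihood test, Benjamini-Hochberg adjustment over 23407 promoters), where 2.47% of all tested promoters did. At an unadjusted p under 0.05 there were 2 of 10, TFAM and TFB2M, both lower, where 17.2% of all promoters reached that level and 8.57% did so with a lower value. DESeq2 gave 0 of 10 at an unadjusted p under 0.05. The share of all promoters at that level was not counted in DESeq2, so this 0 has no background to be read against. The log2 fold changes ran from -0.27 to 0.17 with a median of -0.12, against a median of 0.01 over all tested promoters. In the edgeR fit the 95% intervals of the 10 genes together spanned folds from 0.700 (TFB2M) to 1.38 (TWNK). Larger changes in either direction lay outside every interval of this fit only. DESeq2 gave larger standard errors for each gene, such as 0.208 against 0.152 for TWNK and 0.197 against 0.146 for POLRMT. Its intervals would thus be wider.

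Among the genes of mitochondrial transcription, TFAM had 36.8 and 35.9 CPM in control and 31.9 and 27.1 in overexpression. The groups did not overlap, for a log2 fold change of -0.27 (SE 0.120, 95% interval -0.51 to -0.04, edgeR adjusted p = 0.202). TFB2M had 31.3 and 29.7 CPM in control and 25.4 and 25.7 in overexpression, again without overlap (log2 fold change -0.26, SE 0.128, edgeR adjusted p = 0.258). POLRMT, the polymerase these factors work with, had 20.8 and 19.8 CPM in control and 17.0 and 18.2 in overexpression. Its groups did not overlap either, and its log2 fold change was -0.23 (SE 0.146, edgeR adjusted p = 0.432). TFB1M, a relative of TFB2M that methylates the small ribosomal RNA of the mitochondrion, had 52.9 and 58.1 CPM against 50.1 and 46.9 (log2 fold change -0.18, SE 0.105, edgeR adjusted p = 0.372). Lower values without overlap were thus seen at these 4 promoters, none of which passed the threshold, where 24.9% of all tested promoters and 50.4% of the highest abundance class were lower in this way. MTERF1, the remaining transcription gene, which binds mtDNA at a transcription termination site, behaved less evenly. It had 15.4 and 15.8 CPM in control but 17.1 and 11.0 in overexpression, so its overexpression libraries, with 92 and 32 counts, fell on either side of control (log2 fold change -0.06, SE 0.159, edgeR adjusted p = 0.882).

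Among the replication genes, POLG had 67.0 and 65.8 CPM in control and 60.8 and 60.3 in overexpression. The replicates were close to each other and the groups did not overlap, with a log2 fold change of -0.13 (SE 0.0991, 95% interval -0.33 to 0.06, edgeR adjusted p = 0.507). POLG2 had 22.4 and 22.5 CPM in control and 19.2 and 23.3 in overexpression, so its groups overlapped (log2 fold change -0.11, SE 0.139, edgeR adjusted p = 0.714). TWNK, the helicase that unwinds DNA ahead of the polymerase, was the member with the highest fold change. It had 14.7 and 17.0 CPM in control and 16.8 and 19.2 in overexpression, and the overlap of the groups left a log2 fold change of 0.17 (SE 0.152, 95% interval -0.13 to 0.46, edgeR adjusted p = 0.607). SSBP1 had 25.8 and 25.1 CPM in control and 27.0 and 23.6 in overexpression, with both control libraries inside the overexpression range (log2 fold change 0.02, SE 0.130, edgeR adjusted p = 0.963). MGME1, an exonuclease that trims DNA ends during replication, had 40.5 and 40.0 CPM in control and 39.0 and 39.4 in overexpression. Its groups did not overlap but were nearly level, with a log2 fold change of -0.04 and a 95% interval of -0.26 to 0.18 (edgeR adjusted p = 0.885).

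**Figure D3:**
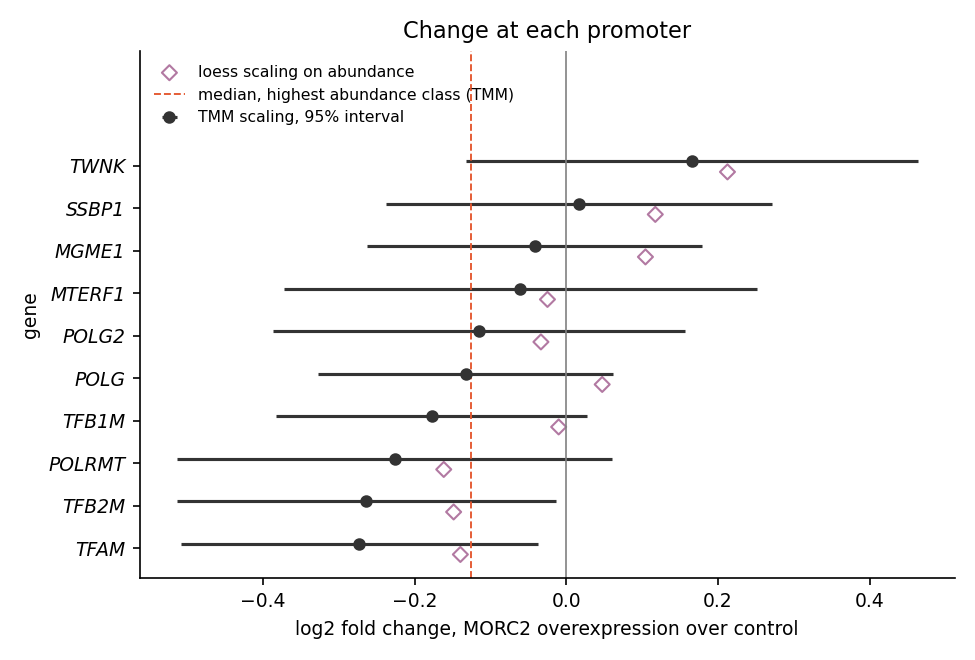
Log2 fold change of overexpression over control at each of the 10 promoters, with 95% intervals from the standard error of the edgeR fit and, as open diamonds, the values after a loess correction for abundance. The dashed line is the median of the highest abundance class (-0.13). The values ran from -0.27 (TFAM) to 0.17 (TWNK), and the loess-corrected values from -0.16 (POLRMT) to 0.21 (TWNK).

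In 6 of the 10 genes both overexpression libraries were below both control libraries and in none were both above, where 49.7% of all tested promoters had groups without overlap, 24.9% lower and 24.8% higher. By abundance class, these were 5 of the 6 genes in the highest class, where 50.4% of all promoters were lower in this way, and 1 of the 4 in the next, where 29.9% were. Of the 10 fold changes, 8 were below 0, against 48.6% of all tested promoters. They were 5 of 6 in the highest class, against 79.2% of its promoters, and 3 of 4 in the next, against 60.6%. Fold changes in the whole table varied with abundance. The median log2 fold change was 0.39 in the lowest class, 0.13 and -0.05 in the next ones and -0.13 in the highest, where 6 of the 10 genes lie. The member median of -0.12 was thus close to that of promoters of like abundance. After a loess correction for abundance the member median was -0.02, with 6 of 10 below 0: TFAM -0.14, TFB2M -0.15 and POLRMT -0.16 kept negative values, and POLG (0.05) and MGME1 (0.10) turned to positive ones.

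**Figure D4:**
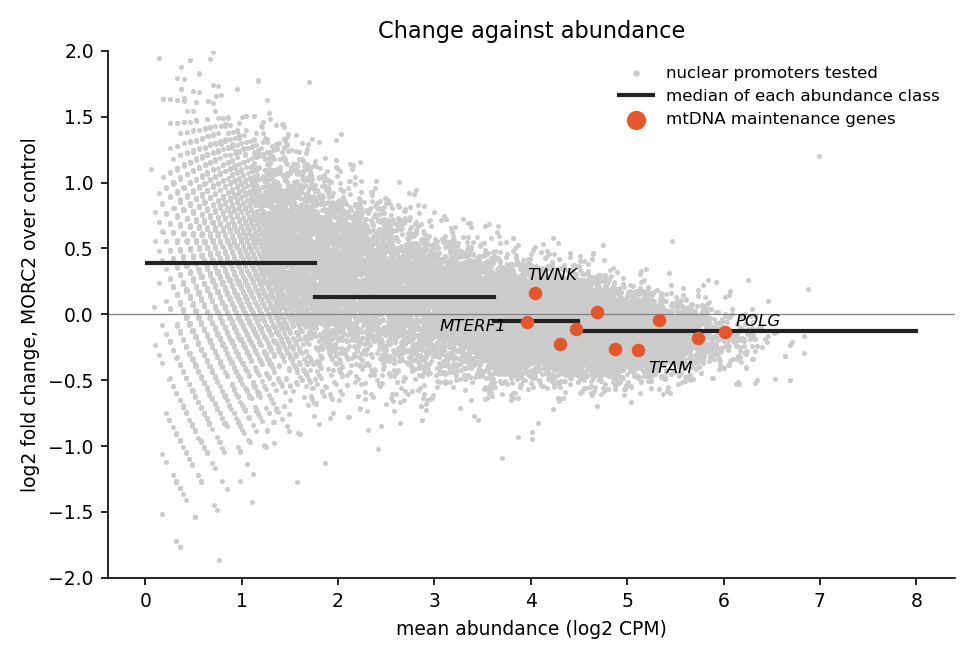
Log2 fold change of overexpression over control against mean abundance in log2 CPM for tested nuclear promoters, with the 10 genes in orange and the median of each abundance class as a black line. The axes leave out 8 nuclear promoters, and the 10 genes lie in the abundant range, where the median of the highest class was -0.13.

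Set out by their sequence, the 5 genes with the NRF1 letters had a median log2 fold change of -0.23 (range -0.27 to -0.11) and the 4 windows without them one of -0.05 (range -0.13 to 0.02). This split was made after the values were seen and was given no test. Over all tested promoters with a window, the 2856 with the NRF1 letters had a median of -0.09 and the 14146 without them one of 0.01. Within the highest abundance class the medians were -0.14 and -0.12. The ETS letters divided the members the other way, with medians of -0.11 for the 5 with them and -0.20 for the 4 without.

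The wider pathway was taken as 4 lists holding 66 genes, all of them tested. Of these, 3 fell and none rose at adjusted p = 0.05, where 1.30% of all promoters fell and 1.16% rose. In the highest abundance class, 260 of 5852 promoters fell and 46 rose. By control level the 3 lay at the 87.3 (RNASEH1), 96.6 (ESRRA) and 92.6 (CREB1) percentile of nuclear promoters. Among 21 genes of mtDNA replication, repair and nucleoid upkeep, 1 fell, 17 had fold changes below 0, and the median log2 fold change was -0.14. Among 20 genes of mitochondrial RNA processing and stability none passed the test, with 13 below 0 and a median of -0.03, and among 13 genes that supply mitochondrial nucleotides none passed, with 9 below 0 and a median of -0.16. Among 12 nuclear regulators of mitochondrial biogenesis 2 fell, 11 had fold changes below 0, and the median was -0.26. The median of all tested promoters was 0.01, with 48.6% below 0. That of the highest abundance class was -0.13, in which 79.2% were below 0. The next class had a median of -0.05 with 60.6% below 0, and the one under it 0.13 with 32.9%. Not all list genes were in the highest class: by control level TK2 and SUCLG1, for example, lay at the 53.7 and 54.1 percentile of nuclear promoters. After the loess correction the medians of the lists were -0.06 (replication), 0.00 (RNA), -0.09 (nucleotides) and -0.12 (regulators). Without overexpression replicate 1 the replication median was -0.01 and without control replicate 1 it was -0.06. The nucleotide median was -0.27 without control replicate 1. That of the regulators ran from -0.35 without overexpression replicate 1 to -0.16 without overexpression replicate 2. The RNA median ran from -0.07 without overexpression replicate 1 to -0.01 without control replicate 2.

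The replication gene that fell was RNASEH1, a nuclease that removes RNA primers from mtDNA. It had 33.2 and 27.9 CPM in control and 21.1 and 20.2 in overexpression, without overlap (log2 fold change -0.57, SE 0.134, edgeR adjusted p = 0.00491), and its counts were identical to those of the divergent transcript RNASEH1-DT. Of the regulators, ESRRA, a nuclear receptor that works with the PGC-1 coactivators, had 46.0 and 44.7 CPM in control and 31.3 and 34.3 in overexpression (log2 fold change -0.49, SE 0.116, edgeR adjusted p = 0.00540). CREB1, which binds the cyclic AMP response element, had 35.6 and 37.6 CPM in control and 26.5 and 26.7 in overexpression (log2 fold change -0.46, SE 0.124, edgeR adjusted p = 0.0199). All 3 promoters had both overexpression libraries below both control libraries, as had 24.9% of all tested promoters and 50.4% of the highest abundance class. They were named because they passed the test in these same libraries, so the lack of overlap is no separate support. After the loess correction for abundance the fold changes stayed below 0 but none of the 3 passed the threshold in the edgeR fit: RNASEH1 had -0.46 (adjusted p = 0.119), ESRRA -0.34 (0.241) and CREB1 -0.33 (0.292). RNASEH1 also missed it without control replicate 1 (-0.42, edgeR adjusted p = 0.187), overexpression replicate 1 (-0.62, 0.117) or overexpression replicate 2 (-0.55, 0.0808), and ESRRA without control replicate 1 (-0.46, 0.0823) or overexpression replicate 1 (-0.42, 0.245). CREB1 missed it when any of the 4 libraries was left out (-0.50 to -0.43, edgeR adjusted p = 0.0687 to 0.228) or with upper quartile scaling (-0.38, 0.0654).

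Of the regulators whose letters were searched in the promoters, CREB1 alone passed the test. SP1 had a log2 fold change of -0.34 (edgeR adjusted p = 0.0630), YY1 one of -0.35 (0.0759), GABPA one of -0.26 (0.185) and NRF1 one of -0.03 (0.940), while GABPB1, the partner subunit of GABPA, had 0.09 (0.836). For the E-box letters, MYC had -0.08 (edgeR adjusted p = 0.767) and TFEB -0.0002 (0.9995). SP1, YY1, GABPA, NRF1, MYC and TFEB were singled out after their values were seen. In the edgeR fit, the highest value of the replication list and both extremes of the nucleotide list missed the threshold: TOP1MT, a mitochondrial topoisomerase, had 0.76 (SE 0.302, adjusted p = 0.149), TYMP, a thymidine phosphorylase, 0.44 (SE 0.165, adjusted p = 0.125), and SUCLG1, a subunit of succinyl-CoA ligase, -0.40 (SE 0.181, adjusted p = 0.220). So did those of the RNA list, where MRPL12, a mitochondrial ribosomal protein that binds POLRMT, had 0.26 (SE 0.132, adjusted p = 0.280) and LRPPRC, which stabilises mitochondrial mRNA, -0.32 (SE 0.171, adjusted p = 0.308).

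**Figure D5:**
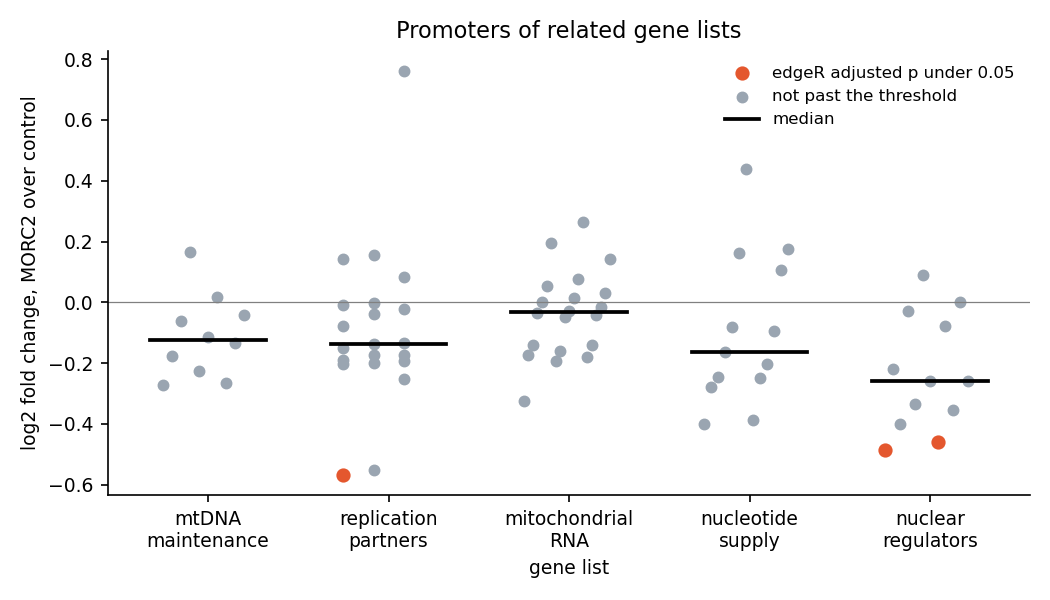
Log2 fold change of overexpression over control for the 10 genes and for the 4 pathway lists of 21, 20, 13 and 12 genes, with a point per promoter and a line at each median. The list medians were -0.14 (replication), -0.03 (RNA), -0.16 (nucleotides) and -0.26 (regulators), and the 3 promoters past the threshold all lay below 0.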

How the data were processed

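ATAC-seq promoter counts were analysed for 2 control and 2 MORC2 overexpression HEK293T libraries, grouped by their labels. According to the methods, the authors trimmed the reads, aligned them with Bowtie2 to the CHM13 assembly, kept pairs of mapping quality 30 or more and removed duplicates with Picard. A promoter was a 2 kb window around the transcription start, and fragments were counted by midpoint. The methods mention no correction for the Tn5 cut offset. The deposited table holds raw counts per promoter, and that it counts the whole 2 kb window is an assumption. The peak lists were not used here, since no gene positions on that assembly were at hand. Symbols were matched by Entrez identifier to RefSeq GRCh38.p14 (28763 of 28775 promoters, 12 without a symbol).

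Counts were filtered with filterByExpr, scaled by TMM and tested with edgeR 4.0.16 (quasi-likelihood F-test, R 4.3.3, limma 3.58.1), with Benjamini-Hochberg adjustment over 23407 promoters and a threshold of 0.05. The study tested small windows and then summarised them, whereas here each promoter was tested directly. The prior degrees of freedom were infinite and the common biological coefficient of variation was 4.28%. Each standard error thus rested on a spread pooled over promoters, and not on the replicate gap of the promoter itself. MTERF1 had a log2 gap of 0.645 between overexpression replicates and an SE of 0.159, and TWNK a gap of 0.194 and an SE of 0.152. Intervals (95%) were formed from the log2 fold change and its standard error. Single values were tested by exact permutation, which cannot go below p = 0.33 with 2 against 2. The labels give the replicates as separate libraries. Between replicates, the chi-square per degree of freedom over nuclear promoters was 1.25 in control and 1.12 in overexpression, and over the 10 genes 0.688 and 1.04. Values this close to counting noise cannot show whether the replicates were prepared separately. The script was tested on simulated data. Alternatives were DESeq2 1.42.0, limma-voom, other scalings and filters, a replicate block and leaving out each library. Named genes were all 10 members, list genes past the threshold, and the highest and lowest fold change in each list.

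The members and the lists were chosen with earlier results of these data known. Letters were searched in the RefSeq promoter windows of 300 bases with Python 3.11.15. One further marker gene of the cell line is not reported here.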

Additional observations from a re-analysis of the deposited data

How the results depend on the processing

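The count of 0 of the 10 genes past the threshold was kept under 15 of 16 alternatives; under scaling by library totals, mitochondrial counts included, all 10 passed, and the median of all promoters was itself -0.78. TFAM, POLRMT, TFB1M and TFB2M had values below 0 in every fit run, and TWNK had values above 0 in every fit except that with library totals. The member median of -0.12 came to -0.91 with library totals, to -0.043 when scaled by the upper quartile, to -0.018 with the loess correction and -0.16 to -0.11 when each library was left out. Promoters past the threshold numbered 577, and 16319 with library totals, 53 with loess, 368 when every library had to hold at least 10 counts, 108 with DESeq2, 52 with DESeq2 without independent filtering (chosen after seeing the data), 1166 at a threshold of 0.1 and 101 to 206 when each library was left out. Of the calls, 52.9% were lower, against 99.7% with library totals, 22.1% with upper quartile, 41.5% with loess, 63.0% with DESeq2 and 21.2% with DESeq2 without independent filtering. The 3 list genes past the threshold became 64, 0, 1 and 0 with library totals, loess, DESeq2 and DESeq2 without independent filtering, and 0 to 2 when each library was left out. DESeq2 with its independent filtering gave no adjusted p for 21329 of 23407 promoters. RNASEH1 and CREB1 were among these, so they were left without a call rather than tested and missed. With DESeq2 without independent filtering, RNASEH1, ESRRA and CREB1 had nearly the same log2 fold changes as in edgeR (-0.56, -0.48 and -0.46) and adjusted p = 0.315, 0.240 and 0.437.

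Signs turned with library totals for TWNK (-0.63), SSBP1 (-0.78), TOP1MT (-0.025), MRPL12 (-0.54), TYMP (-0.36) and GABPB1 (-0.71), with upper quartile for MTERF1 (0.019) and MGME1 (0.040), with loess for POLG (0.047) and MGME1 (0.10), and with no filter for SSBP1 (-0.0088). When each library was left out, SSBP1 ran from -0.12 to 0.078, POLG2 from -0.23 to 0.046, MTERF1 from -0.51 to 0.13 and GABPB1 from -0.22 to 0.23. The cause of these sign changes was not tested.

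Differences between replicates 1 and 2 were nearly uncorrelated between the 2 groups (r = 0.05 over 14976 promoters). These differences were close to counting noise (chi-square per degree of freedom 1.25 in control and 1.12 in overexpression). The correlation thus cannot show whether same-numbered libraries were prepared together. With the replicate block 488 promoters, 0 members and 3 list genes passed. Counts of 32 to 176 per member in the shallowest library limit the size of change that could be detected. DESeq2 with its independent filtering gave no adjusted p for 7 members, so its count of 0 members past the threshold says nothing about those 7.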
